A study of Homo sapiens with 12 samples.

Results

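The human ABC genes measured here encode the ATP-binding cassette family, and their members were taken as every row of the expression table whose gene name joins one of the classes ABCA to ABCG to a number. The rule found 46 rows among 58191, of which 44 are described here, and it left out TAP1, TAP2 and CFTR, which are ABC proteins under other names. RNA sequencing covered 12 libraries in 4 groups of 3, namely K562 cells with EVI1 overexpression, their wild-type K562 controls, cells labelled MOLM14 with EVI1 overexpression and their wild-type controls under the same label. K562 is a chronic myeloid leukaemia line from blast crisis with erythroid features, MOLM14 is an acute monocytic leukaemia line, and EVI1 is a DNA-binding zinc finger protein made from the MECOM gene. Venetoclax, a BCL2 inhibitor, and capivasertib, an AKT inhibitor, appear in the series title, but none of the libraries is labelled with a drug. The labels do not state the vector or promoter behind the overexpression, whether each line was a clone or a pool, or whether replicates came from separate cultures, so p-values measure the spread between these samples alone.

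ABC proteins bind and hydrolyse ATP on paired cassettes, and most use it to move a substrate across a membrane. P-glycoprotein (ABCB1), the breast cancer resistance protein (ABCG2) and the multidrug resistance proteins of the ABCC class sit in the plasma membrane and pump out anticancer drugs, and high ABCB1 is a known marker of poor response in acute myeloid leukaemia. Venetoclax is a known substrate of P-glycoprotein. Other members carry lipids, serve mitochondria, lysosomes or peroxisomes, or, in the ABCE and ABCF classes, have no membrane part and act on ribosomes.

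Values are FPKM, fragments scaled to gene length and library size, so levels can be set side by side between genes. For libraries labelled MOLM14, only the first 5510 rows of the table have gene names that hold: there the mean control levels under both labels had a Pearson r across genes from 0.965 to 0.979 in 11 windows of 500 rows. In the window after them r was 0.0414. Of the 44 ABC genes 19 lie in those rows, and the other 25 were read in K562 alone. Which line the cells labelled MOLM14 are was not tested, but most erythroid markers were expressed there. Of 8 erythroid markers with usable names, 7 had a mean of 1 FPKM or more in both groups under that label. Of 12 myeloid markers, 4 did with EVI1 and 5 in controls. RHAG stood at 291 to 306 FPKM with EVI1 and 348 to 368 FPKM in controls there. KLF1 stood at 55.6 to 63.1 FPKM with EVI1 and 32.0 to 36.7 FPKM in controls. The erythroid factor GATA1 stood between 141 and 149.6 FPKM in labelled MOLM14 EVI1 libraries and between 107 and 123 FPKM in labelled MOLM14 controls. FLT3 and HOXA9, both high in MOLM14, reached at most 0.00915 and 0.0245 FPKM in the EVI1 libraries and were listed at 0 in the controls. The myeloid gene MPO did not exceed 0.0628 FPKM with EVI1 or 0.0595 FPKM in controls under that label. Some myeloid genes were expressed there: LYZ stood at 35.3 to 36.01 FPKM with EVI1 and 80.1 to 82.3 FPKM in controls, and SPI1 at 28.9 to 30.2 FPKM with EVI1 and 40.4 to 48.3 FPKM in controls. PTPRC stood at 61.6 to 78.1 FPKM with EVI1 and 34.1 to 59.9 FPKM in controls there, and CD33 at 9.82 to 10.7 FPKM with EVI1 and 33.2 to 36.1 FPKM in controls. For all 4, the labelled MOLM14 controls were above the K562 controls. The latter reached at most 23.1 FPKM for LYZ, 31.8 for SPI1, 7.34 for PTPRC and 25.1 for CD33. CSF3R was above as well. CEBPE went the other way, at 0 to 0.0789 FPKM in labelled MOLM14 controls and 0.572 to 1.02 FPKM in K562 controls. The other usable myeloid markers did not separate. The erythroid GATA1, KLF1, NFE2, ANK1, HBQ1 and RHAG were lower in labelled MOLM14 controls than in K562 controls. These levels are a description only, since the columns of the labels may have been normalized apart. The text therefore speaks of libraries labelled MOLM14. MECOM averaged 23.99 ± 1.94 FPKM in K562 EVI1 libraries and 12.2 ± 2.08 FPKM in K562 controls, and 17.6 ± 0.617 FPKM in labelled MOLM14 EVI1 libraries and 9.08 ± 0.562 FPKM in their controls (SD, n = 3 each). Depths estimated from the steps of low values were 59900000 to 82100000 fragments in K562 EVI1 libraries and 39200000 to 69600000 in K562 controls.

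Sums of marker genes differed between the groups in many sets. A few high genes can carry such a sum, and some single markers went the other way. Summed over the markers, T and NK cell genes came to 104 to 111 FPKM in K562 EVI1 libraries and 43.5 to 49.5 FPKM in K562 controls, with 4 and 2 of 11 markers at a mean of 1 FPKM or more. CD3D, TRBC2 and TRAC held most of that sum with EVI1, while NKG7 and CD2, both under 1 FPKM, were lower with EVI1. Megakaryocyte genes summed to 39.3 to 40.2 FPKM in K562 EVI1 libraries and 10.98 to 14.05 FPKM in K562 controls, and epithelial genes to 1372 to 1491 FPKM in K562 EVI1 libraries and 861 to 1003 FPKM in K562 controls. KRT8 and KRT18 held nearly all of the epithelial sum. EPCAM was lower with EVI1, at 21.9 to 29.5 FPKM against 51.9 to 57.4 FPKM in K562 controls. CDH1 and VIL1 were higher at low levels, and CDX2 was listed at 0. Myeloid genes summed to 186 to 214 FPKM in K562 EVI1 libraries and 158 to 185 FPKM in K562 controls. At a mean of 1 FPKM or more stood 6 of 23 myeloid markers with EVI1 and 8 in controls. CD33, PTPRC and MEIS1 were higher with EVI1 without overlap, as were some markers under 1 FPKM. SPI1 was lower, at 17.0 to 21.0 FPKM with EVI1 and 26.8 to 31.8 FPKM in K562 controls. LYZ, ITGAM and AZU1 were also lower without overlap. Erythroid genes summed to 13433 to 16654 FPKM in K562 EVI1 libraries and 10739 to 11423 FPKM in K562 controls. The erythroid genes did not move together. HBE1 stood at 6210 to 7502 FPKM with EVI1 and 3227 to 3528 FPKM in K562 controls. HBG1, HBQ1, NFE2, GATA1 and SLC4A1 were also higher in K562 EVI1 libraries without overlap. HBZ stood at 278 to 306 FPKM with EVI1 and 368 to 434 FPKM in K562 controls. KLF1, TFRC, ALAS2, EPOR and HBA1 were also lower without overlap, and the other erythroid markers overlapped. In libraries labelled MOLM14, where fewer markers have usable names, megakaryocyte genes summed to 19.9 to 22.3 FPKM with EVI1 and 7.61 to 9.11 FPKM in controls, erythroid genes to 1008 to 1039 FPKM with EVI1 and 838 to 882 FPKM in controls, epithelial genes to 225 to 227 FPKM with EVI1 and 237 to 255 FPKM in controls, and myeloid genes to 137 to 155 FPKM with EVI1 and 196 to 221 FPKM in controls. T and NK cell genes overlapped under that label, at 0.309 to 1.07 FPKM with EVI1 and 0.640 to 0.891 FPKM in controls. B cell genes overlapped too, at 0.173 to 0.246 FPKM with EVI1 and 0.130 to 0.319 FPKM in controls. The part of the shifts in marker genes in the values of the ABC genes was not tested, and in bulk RNA fewer cells of a type and less RNA per cell cannot be told apart.

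The promoters of 4 genes are shown with their motifs. ABCB1 and ABCC9 were tested in libraries labelled MOLM14 alone, as they were too low in K562. There they reached the filter of 1 FPKM through 1 group and so had to differ. ABCF2 and ABCD4 were tested under both labels and changed differently. Sequences are RefSeq promoters of GRCh38.p14, 250 bases before to 50 bases after a transcript start, all on the minus strand, written 5′ to 3′ with matches to the motifs in capitals. ABCB1 has 2 starts in the table, an upstream start (chr7:87713246-87713545) and an inner start (chr7:87600835-87601134). The windows of the others are chr12:21941377-21941676 for ABCC9, chr14:74302885-74303184 for ABCD4 and chr7:151227156-151227455 for ABCF2.
ABCB1 upstream start: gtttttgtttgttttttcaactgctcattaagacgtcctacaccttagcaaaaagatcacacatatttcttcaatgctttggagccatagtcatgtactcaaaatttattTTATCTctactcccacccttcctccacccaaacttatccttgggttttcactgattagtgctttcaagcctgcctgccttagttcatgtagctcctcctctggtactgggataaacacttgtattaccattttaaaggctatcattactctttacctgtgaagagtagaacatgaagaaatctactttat
ABCB1 inner start: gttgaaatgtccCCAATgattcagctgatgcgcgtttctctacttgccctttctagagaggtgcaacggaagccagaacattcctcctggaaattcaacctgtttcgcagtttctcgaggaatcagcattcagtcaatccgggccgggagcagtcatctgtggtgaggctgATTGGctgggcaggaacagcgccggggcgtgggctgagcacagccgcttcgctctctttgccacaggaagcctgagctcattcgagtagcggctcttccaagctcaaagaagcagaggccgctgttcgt
ABCC9: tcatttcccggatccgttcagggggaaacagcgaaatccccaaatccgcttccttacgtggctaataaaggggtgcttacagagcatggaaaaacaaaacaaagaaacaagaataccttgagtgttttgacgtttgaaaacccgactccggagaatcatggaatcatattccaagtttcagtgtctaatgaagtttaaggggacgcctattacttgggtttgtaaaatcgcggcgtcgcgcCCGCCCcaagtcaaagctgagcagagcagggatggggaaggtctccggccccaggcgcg
ABCD4: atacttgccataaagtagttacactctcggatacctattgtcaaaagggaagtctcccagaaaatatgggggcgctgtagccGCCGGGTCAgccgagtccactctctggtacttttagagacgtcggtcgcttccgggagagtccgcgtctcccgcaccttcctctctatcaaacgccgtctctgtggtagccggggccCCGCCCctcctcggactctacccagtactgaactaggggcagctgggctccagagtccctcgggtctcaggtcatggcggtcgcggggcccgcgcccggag
ABCF2: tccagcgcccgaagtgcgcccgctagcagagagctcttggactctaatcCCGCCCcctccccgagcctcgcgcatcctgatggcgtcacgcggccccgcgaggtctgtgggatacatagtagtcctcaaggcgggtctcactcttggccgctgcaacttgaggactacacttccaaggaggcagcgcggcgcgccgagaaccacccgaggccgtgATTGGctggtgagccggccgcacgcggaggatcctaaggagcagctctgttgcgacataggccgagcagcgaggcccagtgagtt
Capitals mark AGATAA (written TTATCT on the other strand) at the upstream ABCB1 start, ATTGG or its reverse CCAAT at the inner ABCB1 start and in ABCF2, GGGCGG or its reverse CCGCCC in ABCC9, ABCD4 and ABCF2, and TGACNNNGC in reverse in ABCD4.

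Of the 44 genes, 35 had a promoter in the RefSeq table, with 53 windows in all, and 7 motifs were searched on both strands. AGATAA, a core shared by EVI1 and GATA factors, stood in 9.43% of the ABC windows and 10.3% of all 35116 windows. The longer motif of the first zinc finger domain of EVI1, which contains AGATAA, was in none of the ABC windows and in 0.0541% of all. The NRF2-type TGACNNNGC stood in 22.6% of ABC windows and 13.3% of all, and the E-box CACGTG in 17.0% of ABC windows and 7.26% of all. The CCAAT box ATTGG stood in 22.6% of ABC windows and 34.6% of all, the GC box GGGCGG in 47.2% and 45.0% in the same order, and the ATF4-type TGATGCAA in 1.89% and 0.866%. Shares count windows and not genes, and 1 site can be counted more than once where windows overlap. ABCG2, for example, enters the CACGTG count with more than 1 window. A match describes letters in a window and no site of binding.

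In K562, 3 of 4 tested drug efflux genes and both lysosomal genes rose with EVI1, and 3 of 4 ribosome-associated genes fell. Of all tested rows 28.2% rose and 23.7% fell. The role lists are small and were chosen with earlier results of these data known. Among these calls, those of ABCC5, ABCC4 and ABCF3 were lost in 5, 7 and 8 of 14 alternative fits. That of ABCF1 was lost in 1, and the reads of the lysosomal ABCB9 are uncertain. A gene was tested where at least 3 of the 6 libraries of its label held 1 FPKM or more, and called where limma's adjusted p was under 0.05. In K562, 19 of the 44 genes were tested, of which 8 rose, 5 fell and 6 did not pass, beside 28.2% of all 13800 tested rows that rose and 23.7% that fell. Among the 19 genes with usable names in libraries labelled MOLM14, 10 were tested, of which 6 rose, 1 fell and 3 did not pass, beside 30.4% of tested rows with usable names that rose and 26.9% that fell. Among tested genes in K562, all EVI1 libraries lay above all controls for 10 and below for 6 (32.4% and 28.2% of tested rows), and in libraries labelled MOLM14 for 6 and 1 (34.3% and 30.8%). Some of those tested passed the filter through 1 group alone and so had to differ: ABCG4 and ABCA8 in K562, ABCB1 and ABCC9 in libraries labelled MOLM14. The median log2 fold change was 0.20 over the tested ABC genes and 0.0053 over all tested rows in K562, and 0.26 over the tested ABC genes and 0.02 over tested rows with usable names in libraries labelled MOLM14, given as a description only. Log2 fold changes are EVI1 over control on the scale of log2(FPKM + 1), which understates changes of low genes.

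The most abundant members in K562 EVI1 libraries were ABCF1 (106 ± 6.08 FPKM), ABCB8 (85.3 ± 7.61), ABCE1 (70.4 ± 10.1), ABCF2 (69.2 ± 4.01) and ABCA7 (65.1 ± 0.856, mean ± SD, n = 3), and the means of ABCF2 and ABCA7 lay within the SD of ABCE1. The same 5 led in K562 controls in another order, with ABCF1 at 136 ± 10.7 FPKM, ABCF2 at 112 ± 7.54, ABCE1 at 82.7 ± 0.372, ABCB8 at 67.6 ± 1.89 and ABCA7 at 55.3 ± 6.90 FPKM. Among the 19 members with usable names, ABCF2 at 90.1 ± 3.47 FPKM, ABCA7 at 42.6 ± 7.64 and ABCC5 at 35.9 ± 0.101 led in labelled MOLM14 EVI1 libraries, and ABCF2 at 48.9 ± 3.64, ABCA7 at 44.5 ± 3.46 and ABCC5 at 30.1 ± 0.955 FPKM in labelled MOLM14 controls.

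**Figure D1:**
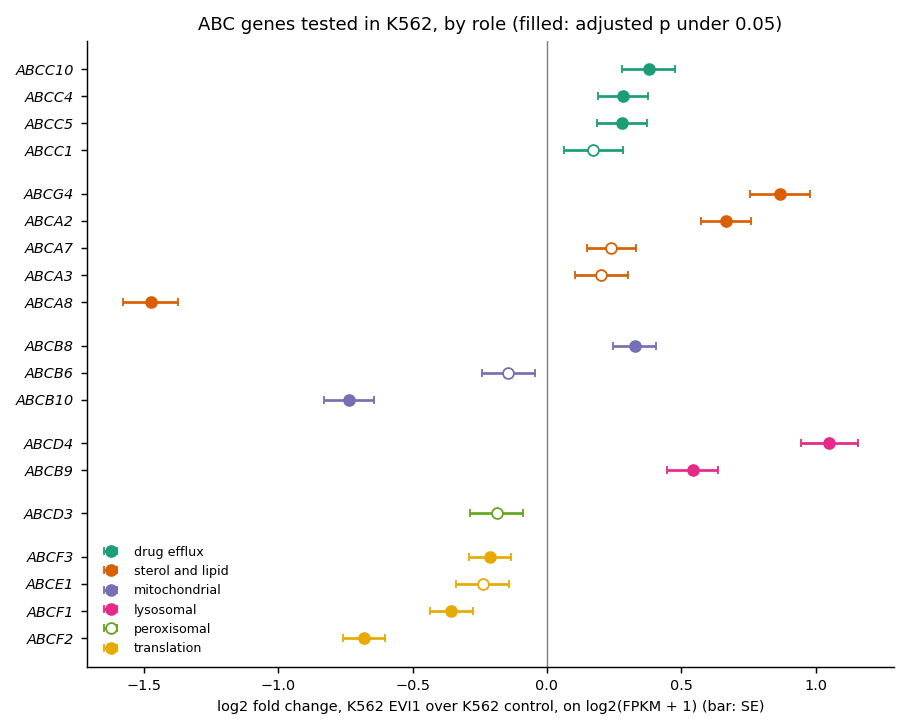
Log2 fold change of K562 EVI1 over K562 control libraries (x axis, on log2(FPKM + 1), n = 3 each) for the 19 tested ABC genes, grouped by role in colour, with bars for the SE and filled points for an adjusted p under 0.05. Points run from -1.48 for ABCA8 to 1.05 for ABCD4, and the 4 ribosome-associated genes at the bottom all sit left of 0.

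ABCB1, which encodes P-glycoprotein, rose with EVI1 in libraries labelled MOLM14, and in K562, where it was too low for the main test, every EVI1 library was above every control. The gene (ENSG00000085563.14, chromosome 7 from 87503633 to 87713323 on the minus strand, GRCh38) stood at 5.28, 4.68 and 4.43 FPKM in labelled MOLM14 EVI1 libraries, against 0.660, 0.716 and 0.677 FPKM in labelled MOLM14 controls. The groups lay far apart, with the lowest EVI1 library several times above the highest control, and the ratio of the group means was 7.01 (limma log2 fold change 1.78, SE 0.11, adjusted p = 1.63e-05). All these controls were under 1 FPKM, so ABCB1 passed the filter there through the EVI1 libraries alone and had to differ. In K562 it stood at 2.28, 2.48 and 0.931 FPKM in EVI1 libraries, against 0.658, 0.452 and 0.238 FPKM in controls, a ratio of means of 4.22. The third EVI1 library was well below the other two and nearest to the controls. Only 2 K562 libraries reached 1 FPKM, so the gene was outside the limma test there. An exact two-sided permutation test gave p = 0.1, the smallest that 3 against 3 libraries allow, and limma without the filter gave a log2 fold change of 0.96 with an adjusted p of 0.0544. By the estimated depths and the full exon length, the K562 values come to at most 1086, 861 and 416 fragments in EVI1 libraries and 150, 183 and 85 in controls.

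ABCG2, the breast cancer resistance protein, was near 0 in every group. It was listed at 0.0116, 0.0961 and 0.00974 FPKM in K562 EVI1 libraries and 0, 0 and 0.00812 FPKM in K562 controls. Under the label MOLM14 it was listed at 0.0130, 0 and 0.0445 FPKM with EVI1 and 0.0124, 0.0138 and 0.0784 FPKM in controls. In K562 every EVI1 library was above every control, but the gap, between 0.00974 and 0.00812 FPKM, was small, and limma without the filter gave an adjusted p of 0.386. The groups overlapped under the label MOLM14, and no library reached 0.1 FPKM.

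The multidrug resistance proteins ABCC1, ABCC4, ABCC5 and ABCC10 were the drug pumps with solid expression, and 3 of these 4 rose in K562. ABCC10, which in cell culture exports taxanes, had 21.1, 24.5 and 22.2 FPKM in K562 EVI1 libraries, against 19.2, 16.7 and 15.6 FPKM in K562 controls (log2 fold change 0.38, SE 0.10, adjusted p = 0.0118). ABCC5, an exporter of cyclic nucleotides and nucleotide analogues, had 40.1, 47.1 and 43.7 FPKM in K562 EVI1 libraries, against 36.9, 38.4 and 32.1 FPKM in K562 controls (log2 fold change 0.28, SE 0.09, adjusted p = 0.034). ABCC4, which exports cyclic nucleotides and prostaglandins, had 16.7, 15.3 and 14.1 FPKM in K562 EVI1 libraries, against 11.9, 12.04 and 13.4 FPKM in K562 controls (log2 fold change 0.28, SE 0.09, adjusted p = 0.0308). None of the 3 overlapped between groups, but the gaps were small. Without the filter on low values both ABCC5 (adjusted p = 0.0863) and ABCC4 (0.0577) lost their calls. The call of ABCC5 was also lost without K562 control 1 or 3 or without K562 EVI1 2 or 3 (adjusted p from 0.067 to 0.0939). The call of ABCC4 was also lost without K562 control 1 or 2 or K562 EVI1 1 or 2 (0.0612 to 0.107) and under quantile normalization (0.0817).

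ABCC1, which exports glutathione conjugates and anthracyclines (ENSG00000103222.18, chromosome 16 from 15949577 to 16143074), did not pass in K562 and rose in libraries labelled MOLM14. It had 20.4, 22.8 and 22.6 FPKM in K562 EVI1 libraries, against 18.5, 22.8 and 17.1 FPKM in K562 controls, and the groups overlapped (log2 fold change 0.17, SE 0.11, adjusted p = 0.222). Without K562 control 2, the highest of the controls, its adjusted p was 0.0414. Labelled MOLM14 libraries had 23.9, 26.4 and 25.4 FPKM of ABCC1 with EVI1, against 15.3, 17.9 and 17.3 FPKM in controls, with a clear gap (log2 fold change 0.56, SE 0.08, adjusted p = 0.000715). ABCC5 also rose there, with 35.8, 35.9 and 35.98 FPKM in labelled MOLM14 EVI1 libraries, against 30.8, 30.6 and 29.03 FPKM in labelled MOLM14 controls (log2 fold change 0.24, SE 0.05, adjusted p = 0.00576). Its 3 EVI1 libraries were nearly equal, and the rise was close in size to that in K562.

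The remaining drug pumps lay under the filter. ABCC3, which carries glucuronides, stood at 0.845, 0.396 and 0.569 FPKM in K562 EVI1 libraries, against 0.0201, 0.0441 and 0.118 FPKM in K562 controls, a ratio of means of 9.93 with every EVI1 library above every control. It was listed at 0, 0.288 and 0.0566 FPKM in labelled MOLM14 EVI1 libraries and 0.117, 0.119 and 0.218 FPKM in labelled MOLM14 controls, which overlapped. Limma without the filter called ABCC3 in K562 (log2 fold change 0.59, adjusted p = 0.0164), beside 14.7% of 32468 rows called higher in that fit. ABCC2, an exporter of the liver canaliculus, stayed at or below 0.0485 FPKM and ABCC11 at or below 0.122 FPKM in all libraries, and the groups overlapped under both labels.

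**Figure D2:**
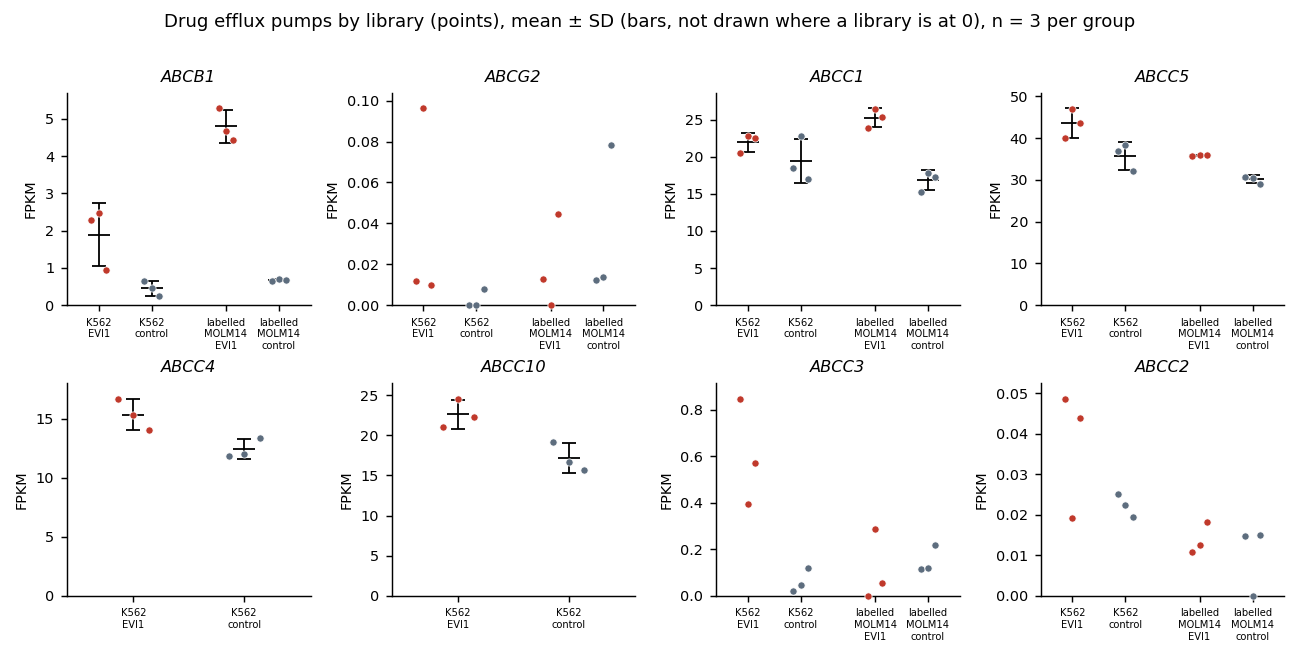
FPKM of 8 drug efflux genes by library (points), with group mean and SD (bars, n = 3, omitted for a gene with a library at 0), EVI1 in red left of control in grey. ABCB1 lies between 4.43 and 5.28 FPKM in labelled MOLM14 EVI1 libraries and below 0.72 FPKM in all 6 controls, while ABCG2 stays below 0.1 FPKM throughout. ABCC4 and ABCC10 have K562 columns alone.

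The liver transporters beside the drug pumps were low, and some were higher with EVI1. ABCB4, a phosphatidylcholine transporter whose gene is the direct neighbour of ABCB1, stood at 0.505, 0.374 and 0.393 FPKM in labelled MOLM14 EVI1 libraries and 0.0281, 0.0425 and 0 FPKM in labelled MOLM14 controls. In K562 it stood at 0.249, 0.390 and 0.231 FPKM with EVI1, against 0.0741, 0.0575 and 0.101 FPKM in controls, a ratio of means of 3.74. Neither label showed overlap, and limma without the filter called it under both (adjusted p = 0.00188 in libraries labelled MOLM14, beside 21.2% of rows with usable names called higher there, and 0.0218 in K562). ABCB1 and ABCB4 are similar in sequence, and how reads that fit both were assigned is not given in the sources used here. ABCB11, the bile salt export pump, stood at 0.323, 0.237 and 0.348 FPKM in K562 EVI1 libraries, against 0.118, 0.0605 and 0.128 FPKM in K562 controls, and overlapped between groups in libraries labelled MOLM14. ABCC6, mutated in pseudoxanthoma elasticum, stood at 0.160, 0.136 and 0.112 FPKM in labelled MOLM14 EVI1 libraries, against 0.254, 0.440 and 0.331 FPKM in labelled MOLM14 controls, and overlapped in K562. Without the filter it was called lower in libraries labelled MOLM14 (adjusted p = 0.0369), beside 18.2% of rows. ABCC6 has pseudogene copies, so its reads are uncertain. ABCB5 and ABCC12 were listed at 0 in every K562 library, as was ABCB5 in every library labelled MOLM14.

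Both sulphonylurea receptors, the ABCC proteins that regulate ATP-sensitive potassium channels, differed in opposite directions in K562, at levels under the filter. ABCC9 (ENSG00000069431.11, chromosome 12 from 21797401 to 21942529 on the minus strand) fell in libraries labelled MOLM14, with 0.618, 0.598 and 0.878 FPKM in EVI1 libraries, against 3.38, 3.41 and 2.81 FPKM in controls (log2 fold change -1.31, SE 0.13, adjusted p = 0.000133). There ABCC9 passed the filter through the controls alone and so had to differ. In K562 it stood at 0.300, 0.177 and 0.435 FPKM with EVI1, against 0.643, 0.925 and 0.829 FPKM in controls, again without overlap. Limma without the filter gave ABCC9 a log2 fold change of -0.47 and an adjusted p of 0.0275 in K562. ABCC8, the receptor of pancreatic beta cells, was at 0.179, 0.130 and 0.347 FPKM in K562 EVI1 libraries and listed at 0 in the K562 controls and in all libraries labelled MOLM14 (adjusted p in K562 without the filter 0.0348).

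Among lipid transporters of the ABCA and ABCG classes, 2 of the 5 tested in K562 rose, 1 fell and 2 did not pass. ABCA2, a sterol and lipid transporter of endosomes and lysosomes (ENSG00000107331.16, chromosome 9 from 137007227 to 137028922), had 18.98, 21.1 and 18.9 FPKM in K562 EVI1 libraries, against 12.6, 12.8 and 10.7 FPKM in K562 controls (log2 fold change 0.67, SE 0.09, adjusted p = 0.000552). The K562 groups were well apart, whereas in libraries labelled MOLM14 they overlapped, at 6.62, 9.66 and 8.93 FPKM with EVI1 and 9.53, 10.3 and 9.07 FPKM in controls (log2 fold change -0.19, SE 0.13, adjusted p = 0.251). ABCG4, a sterol exporter known from brain and megakaryocyte precursors, had 1.03, 1.05 and 1.05 FPKM in K562 EVI1 libraries, against 0.231, 0.0585 and 0.0772 FPKM in K562 controls (log2 fold change 0.87, SE 0.11, adjusted p = 0.00033). Its 3 EVI1 libraries sat just above the filter of 1 FPKM, and ABCG4 passed it through them alone and so had to differ. The size of its change depended on the scale, from 0.45 under quantile normalization to 2.44 with a pseudocount of 0.1.

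ABCA8, which takes part in cholesterol efflux, showed the lowest log2 fold change of the tested genes in K562. The gene (ENSG00000141338.13, chromosome 17 from 68867292 to 68955392) had 0.783, 0.948 and 0.818 FPKM in K562 EVI1 libraries, against 3.89, 4.06 and 4.48 FPKM in K562 controls (log2 fold change -1.48, SE 0.10, adjusted p = 1.20e-05). It passed the filter through the K562 controls alone and so had to differ. ABCA7, a phospholipid transporter tied to Alzheimer risk, had 64.9, 66.1 and 64.4 FPKM in K562 EVI1 libraries, against 50.7, 63.2 and 51.9 FPKM in K562 controls, and just missed the threshold (log2 fold change 0.24, SE 0.09, adjusted p = 0.0555). It passed without K562 control 2 (adjusted p = 0.0092), under median-of-ratios scaling (0.0428) and under quantile normalization (0.0359). Under the label MOLM14, ABCA7 had 34.1, 48.9 and 44.9 FPKM with EVI1 and 40.9, 44.6 and 47.8 FPKM in controls, which overlapped (log2 fold change -0.07, SE 0.13, adjusted p = 0.662). ABCA3, the surfactant lipid transporter of the lung, had 10.97, 13.6 and 11.6 FPKM in K562 EVI1 libraries, against 10.8, 10.4 and 9.76 FPKM in K562 controls (log2 fold change 0.20, SE 0.10, adjusted p = 0.12).

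The cholesterol exporters ABCA1 and ABCG1, the classical LXR targets, were close to 0 in K562. ABCA1 stood at 0.0217, 0.00792 and 0.0154 FPKM with EVI1 and 0.0149, 0.0526 and 0.0112 FPKM in controls, and ABCG1 did not exceed 0.00833 FPKM. ABCA13 was listed at 0.0117, 0.00403 and 0 FPKM in K562 EVI1 libraries, against 0.400, 0.359 and 0.537 FPKM in K562 controls, with no overlap. ABCA5 likewise stood at 0.121, 0.156 and 0.243 FPKM with EVI1, against 0.510, 0.475 and 0.517 FPKM in controls, and ABCA6 at 0.0493, 0.0169 and 0.0271 FPKM with EVI1, against 0.170, 0.107 and 0.146 FPKM in controls. The EVI1 libraries were the lower ones for all 3, and each was called by limma without the filter (adjusted p = 0.00226, 0.00625 and 0.014), beside 9.33% of rows called lower in that fit. ABCA12, which loads lipid into skin granules, was called higher there at levels up to 0.0601 FPKM. ABCA4, ABCA9, ABCA10, ABCG5 and ABCG8 stayed at or below 0.207 FPKM and were not called without the filter.

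In all, 25 ABC genes were under the filter in K562, and 11 of them were at 0 in at least 1 library. Of the 23 with a value above 0 in some library, 10 had all EVI1 libraries above all controls, 4 had them below and 9 overlapped, beside 16.5% above and 6.62% below of the 18668 such rows under the filter. Among the 7 such genes in libraries labelled MOLM14, ABCB4 was separated upward and ABCC6 downward, beside 13.7% and 14.5% of rows.

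**Figure D3:**
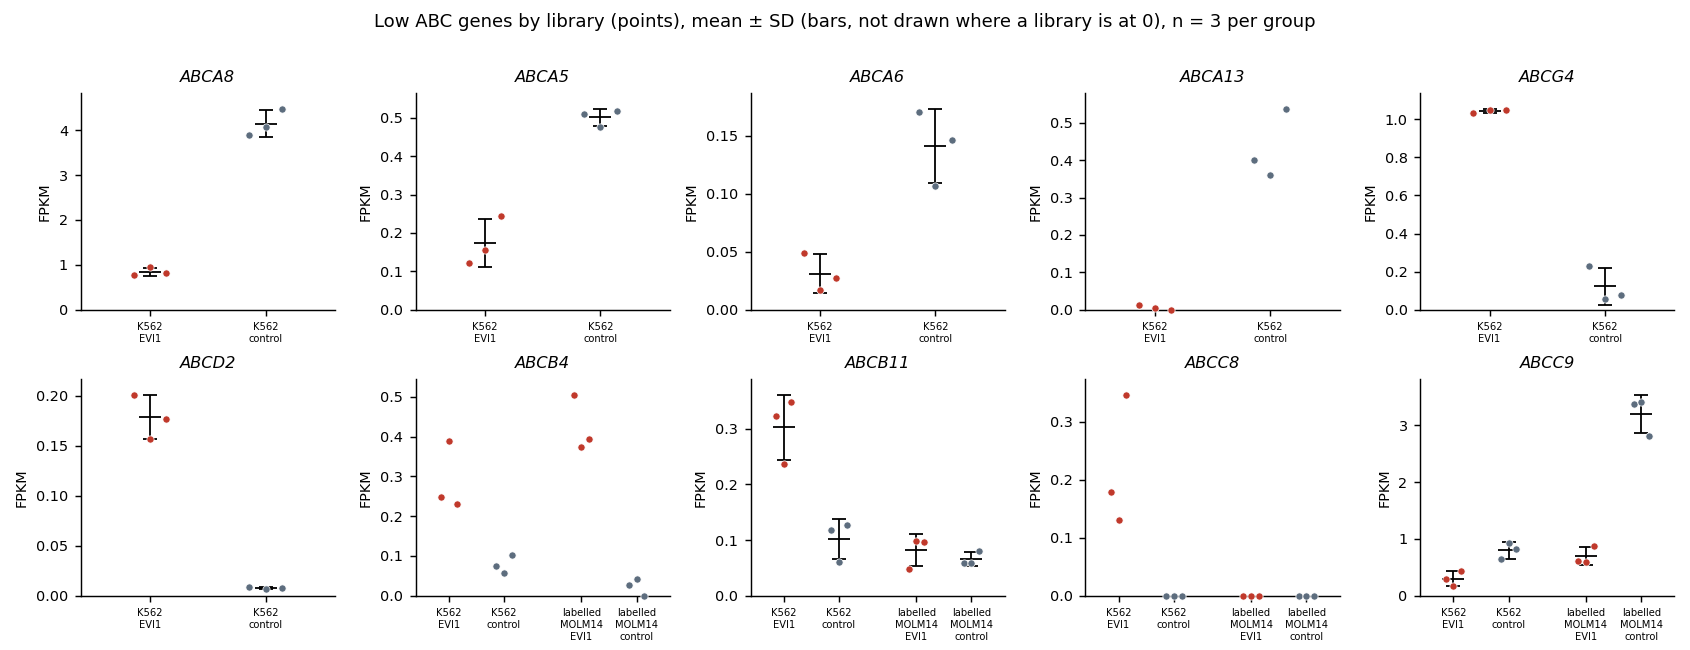
FPKM by library (points), with group mean and SD (bars, n = 3, omitted for a gene with a library at 0), for 10 ABC genes of low expression, EVI1 in red left of control in grey. ABCA8, ABCA5, ABCA6, ABCA13 and ABCC9 are lower with EVI1 in K562, with ABCA8 at 0.783 to 0.948 FPKM in EVI1 libraries and 3.89 to 4.48 FPKM in controls. ABCG4, ABCD2, ABCB4, ABCB11 and ABCC8 are higher.

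The mitochondrial transporters, which serve haem and iron-sulphur cluster synthesis, did not move together in K562: of the 3 described, 1 rose, 1 fell and 1 did not pass. ABCB8, an inner membrane protein, had 80.01, 94.00 and 81.8 FPKM in K562 EVI1 libraries, against 66.8, 69.8 and 66.3 FPKM in K562 controls (log2 fold change 0.33, SE 0.08, adjusted p = 0.0087). ABCB10, needed for haemoglobin synthesis in red cell precursors of the mouse, had 14.2, 11.7 and 12.1 FPKM in K562 EVI1 libraries, against 21.9, 20.5 and 22.6 FPKM in K562 controls (log2 fold change -0.74, SE 0.09, adjusted p = 0.000319). Both were separated between groups, ABCB8 upward and ABCB10 downward. Copies of ABCB10 exist as pseudogenes, so part of its reads is uncertain.

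ABCB6, a porphyrin transporter that carries the Lan blood group, was the mitochondrial member measured under both labels. In K562 it had 19.1, 22.9 and 21.3 FPKM with EVI1 and 25.8, 23.3 and 21.2 FPKM in controls, which overlapped (log2 fold change -0.14, SE 0.10, adjusted p = 0.255). It rose in libraries labelled MOLM14, with 14.5, 16.3 and 16.8 FPKM in EVI1 libraries, against 11.6, 11.4 and 13.3 FPKM in controls (log2 fold change 0.37, SE 0.09, adjusted p = 0.00931).

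Both lysosomal members rose in K562. ABCD4, which moves cobalamin out of the lysosome (ENSG00000119688.20, chromosome 14 from 74285423 to 74303056 on the minus strand), had 29.8, 35.8 and 28.2 FPKM in K562 EVI1 libraries, against 13.3, 15.6 and 14.8 FPKM in K562 controls (log2 fold change 1.05, SE 0.11, adjusted p = 9.17e-05). This was the highest log2 fold change among the tested ABC genes in K562 with a pseudocount of 1 FPKM, but with 0.1 FPKM ABCG4 stood at 2.44 and ABCD4 at 1.10, and the ratios of means were 8.54 for ABCG4 and 2.15 for ABCD4. The lowest EVI1 library was well above the highest control. Under the label MOLM14, ABCD4 had 13.8, 15.9 and 14.98 FPKM with EVI1 and 15.7, 16.6 and 20.2 FPKM in controls, which overlapped (log2 fold change -0.21, SE 0.10, adjusted p = 0.118). ABCB9, a peptide transporter related to TAP1 and TAP2, had 10.5, 12.1 and 11.4 FPKM in K562 EVI1 libraries, against 7.19, 8.24 and 6.98 FPKM in K562 controls (log2 fold change 0.54, SE 0.10, adjusted p = 0.00176). Of the 13291 exon bases of ABCB9, 5998 overlap genes on the other strand, among them ARL6IP4 and OGFOD2, and strand use is not stated, so its reads are uncertain. For ABCD4, 624 of 8769 exon bases overlap a gene on the same strand.

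Of the peroxisomal transporters, which import fatty acids for beta-oxidation, ABCD3 did not pass in K562 and rose in libraries labelled MOLM14. It had 11.3, 9.00 and 9.53 FPKM in K562 EVI1 libraries and 11.6, 11.3 and 11.4 FPKM in K562 controls, which overlapped (log2 fold change -0.19, SE 0.10, adjusted p = 0.142). ABCD3 in libraries labelled MOLM14 had 19.8, 18.7 and 19.99 FPKM in EVI1 libraries, against 16.6, 16.6 and 14.9 FPKM in controls (log2 fold change 0.27, SE 0.07, adjusted p = 0.0137). Without labelled MOLM14 EVI1 3 its adjusted p there was 0.0539. In K562 it was called lower without K562 EVI1 1 (log2 fold change -0.28, adjusted p = 0.0463) and under quantile normalization (-0.26, 0.0467). ABCD2 was under the filter, at 0.201, 0.157 and 0.177 FPKM in K562 EVI1 libraries, against 0.00846, 0.00711 and 0.00820 FPKM in K562 controls. The control values come to at most 2 to 3 fragments a library, and limma without the filter gave an adjusted p of 0.00121.

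The soluble ABCE and ABCF proteins were among the most abundant members, and 3 of 4 fell in K562. ABCF1, a partner of the initiation factor eIF2, had 102, 104 and 113 FPKM in K562 EVI1 libraries, against 148, 135 and 126 FPKM in K562 controls (log2 fold change -0.36, SE 0.08, adjusted p = 0.00642). ABCF2, a ribosome-associated ATPase (ENSG00000033050.7), had 64.9, 72.8 and 70.1 FPKM in K562 EVI1 libraries, against 119, 112 and 104 FPKM in K562 controls (log2 fold change -0.68, SE 0.08, adjusted p = 0.000187). ABCF3, related to yeast GCN20, which acts in the starvation response through GCN2, had 38.6, 41.7 and 40.1 FPKM in K562 EVI1 libraries, against 48.3, 49.01 and 42.8 FPKM in K562 controls (log2 fold change -0.21, SE 0.08, adjusted p = 0.0477). The EVI1 libraries were below the controls for all 3, with the narrowest gap for ABCF3. With libraries scaled to equal FPKM sums the adjusted p was 0.0515 for ABCF1 and 0.276 for ABCF3, with the same direction, and leaving out K562 control 1 or 2 or K562 EVI1 1 or 3 also ended the call of ABCF3 (0.112 to 0.158), as did no filter (0.0717) and no trend (0.0702).

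ABCE1, which splits ribosomes after termination, had 64.4, 81.99 and 64.7 FPKM in K562 EVI1 libraries, against 82.3, 82.6 and 83.1 FPKM in K562 controls (log2 fold change -0.24, SE 0.10, adjusted p = 0.0725). The controls were nearly equal, and the second EVI1 library lay just under them while the other two were lower. Without that library the log2 fold change was -0.35 with an adjusted p of 0.00336. Genes on the other strand overlap 988 of the 6265 exon bases of ABCE1.

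ABCF2 changed in the other direction in libraries labelled MOLM14. It had 91.8, 92.5 and 86.1 FPKM in labelled MOLM14 EVI1 libraries, against 45.1, 52.4 and 49.2 FPKM in labelled MOLM14 controls (log2 fold change 0.87, SE 0.07, adjusted p = 4.96e-05). The EVI1 libraries were all far above the controls, whereas in K562 they were all below them.

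**Figure D4:**
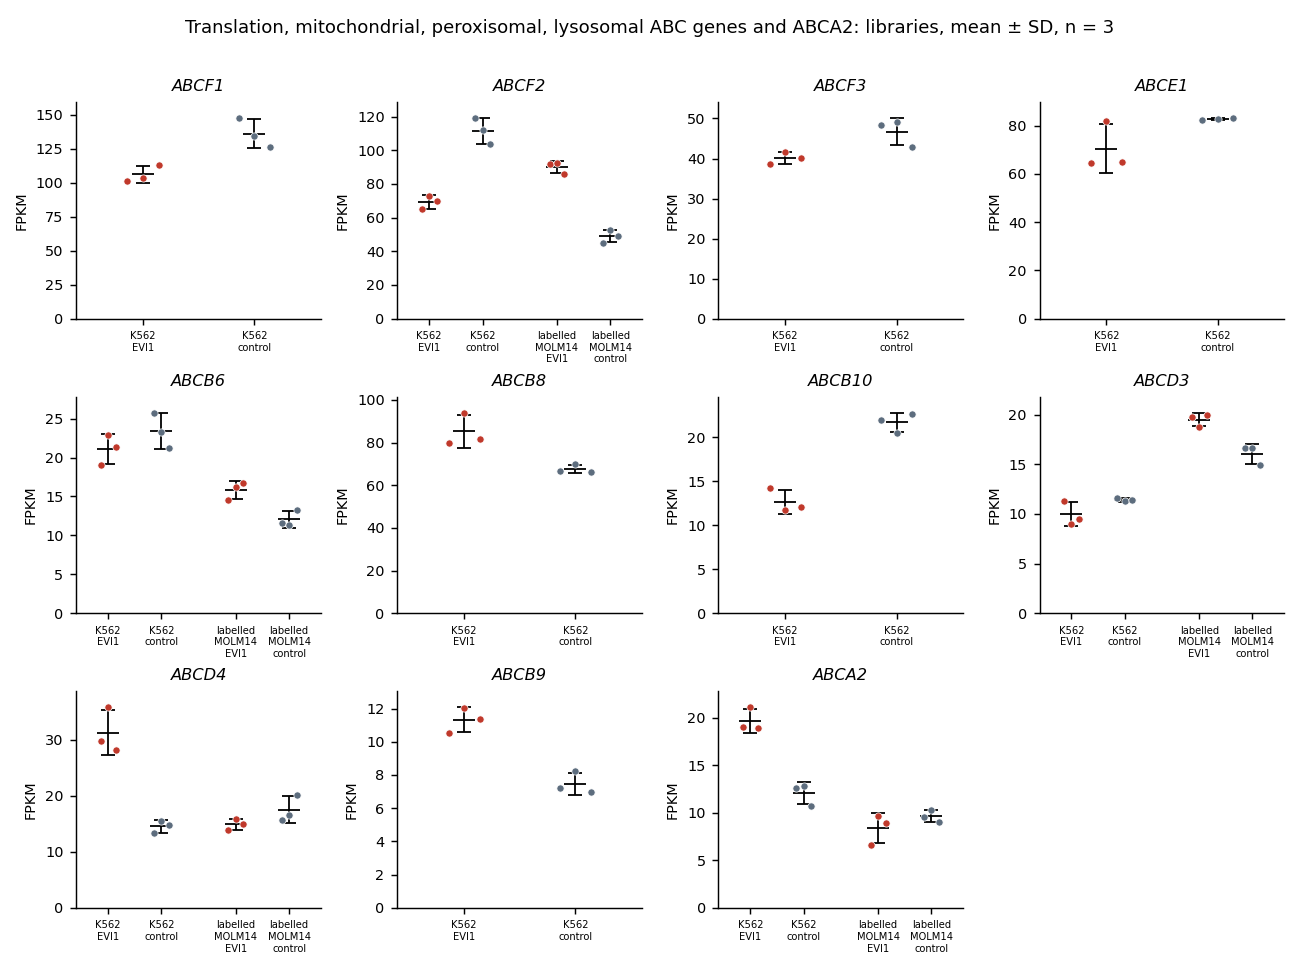
FPKM by library (points), with group mean and SD (bars, n = 3), for 11 ABC genes, namely ABCA2 and genes of translation, mitochondria, peroxisomes and lysosomes, EVI1 in red left of control in grey. ABCF2 lies at 64.9 to 72.8 FPKM in K562 EVI1 libraries and 104 to 119 FPKM in K562 controls, but at 86.1 to 92.5 FPKM in labelled MOLM14 EVI1 libraries and 45.1 to 52.4 FPKM in labelled MOLM14 controls. Genes with 2 groups have K562 columns alone.

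The effect of EVI1 differed between the labels for 6 of the 8 ABC genes tested under both, beside 64.9% of the 3697 rows tested in the same way, so the share was near that of all rows. Of the 6, 4 had the higher effect in libraries labelled MOLM14 and 2 the lower, beside 34.1% and 30.8% of rows. The difference is the log2 fold change in libraries labelled MOLM14 minus that in K562, from limma over all 12 libraries. Columns of the 2 labels may come from separate normalization runs, so for the ABC genes only effects within a label were set against each other. ABCF2 had a difference of 1.55 (SE 0.10, adjusted p = 1.52e-08), with a rise under the label MOLM14 and a fall in K562. ABCD4 had a difference of -1.26 (SE 0.15, adjusted p = 4.87e-06) and ABCA2 of -0.86 (SE 0.16, adjusted p = 0.000323), both rising in K562 and not passing under the label MOLM14. ABCB6 had a difference of 0.51 (SE 0.13, adjusted p = 0.0039) and ABCD3 of 0.45 (SE 0.12, adjusted p = 0.00397), both rising under the label MOLM14 and not passing in K562.

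For the drug pump ABCC1 the difference was 0.39 (SE 0.14, adjusted p = 0.0244). It did not pass with libraries scaled to equal sums (0.122), nor without K562 control 2, K562 EVI1 1, labelled MOLM14 control 1 or labelled MOLM14 EVI1 2 (0.0542 to 0.0642). ABCC5 had a difference of -0.04 (SE 0.11, adjusted p = 0.792) and was the gene that rose under both labels. ABCA7 had a difference of -0.31 (SE 0.16, adjusted p = 0.106), which passed under quantile normalization (0.0418) and without K562 control 2 (0.0379) or labelled MOLM14 EVI1 2 (0.0318). Without the filter, limma gave ABCB1 a difference of 0.82 (adjusted p = 0.0213), ABCC9 of -0.84 (0.000297) and ABCC3 of -0.64 (0.00358). ABCB4 (0.22, 0.0199), ABCB11 (-0.22, 0.00471) and ABCC6 (-0.30, 0.0124) were called there too. In that fit 57.2% of 4884 rows were called (26.5% higher and 30.7% lower). For genes this low, the size of a difference on log2(FPKM + 1) depends on the pseudocount and on the level under each label.

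**Figure D5:**
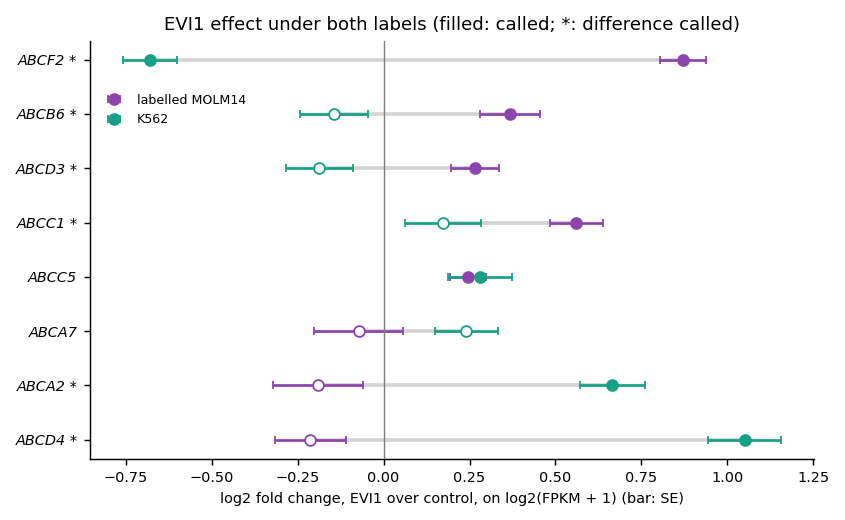
Log2 fold change of EVI1 over control (x axis, on log2(FPKM + 1), bars for the SE) for the 8 ABC genes tested under both labels, purple for labelled MOLM14 and green for K562, filled where called, with a star where the difference was called. ABCF2 lies at 0.87 in libraries labelled MOLM14 and at -0.68 in K562, while the points of ABCC5 nearly coincide.

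Genes of the pathways around the transporters were read from lists of partners. Of 12 tested factors known to regulate ABCB1 or ABCG2, 7 rose and 4 fell in K562, among them the oestrogen receptor gene ESR1 at 4.66 ± 0.264 FPKM with EVI1 and 0.148 ± 0.0865 FPKM in controls (log2 fold change 2.30, SE 0.11, adjusted p = 1.64e-06). ESR1 passed the filter through the EVI1 libraries alone and so had to differ. RUNX1, a factor of blood development, averaged 62.0 ± 10.2 FPKM in K562 EVI1 libraries and 25.5 ± 4.32 FPKM in K562 controls. VDR, the vitamin D receptor, averaged 5.08 ± 0.178 FPKM in K562 EVI1 libraries and 2.09 ± 0.136 FPKM in K562 controls. Of 6 such factors tested in libraries labelled MOLM14, 2 rose and 1 fell. VDR averaged 2.37 ± 0.148 FPKM with EVI1 and 0.907 ± 0.175 FPKM in controls there. NFYA, a CCAAT-binding subunit, averaged 24.5 ± 0.213 FPKM with EVI1 and 16.3 ± 0.249 FPKM in controls, while the forkhead factor FOXO3 averaged 6.68 ± 0.429 FPKM with EVI1 and 11.2 ± 0.259 FPKM in controls.

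Of 11 tested uptake carriers and nucleoside kinases, which bring drugs into cells and activate them, 2 rose and 6 fell in K562. SLC22A4, the ergothioneine carrier, averaged 2.23 ± 0.277 FPKM in K562 EVI1 libraries and 5.05 ± 0.841 FPKM in K562 controls. Under the label MOLM14 2 of 4 rose, among them SLCO4A1, an organic anion carrier, at 10.1 ± 1.02 FPKM with EVI1 and 3.05 ± 0.255 FPKM in controls. In the NRF2 and glutathione list, whose genes supply the glutathione that some ABCC pumps carry, 1 of 15 rose in K562 and 5 fell. The one that rose was the cystine carrier SLC7A11, at 7.31 ± 0.977 FPKM in K562 EVI1 libraries and 1.30 ± 0.149 FPKM in K562 controls. KEAP1, the inhibitor of NRF2, averaged 32.6 ± 1.24 FPKM with EVI1 and 51.2 ± 8.85 FPKM in controls in K562. In libraries labelled MOLM14, where 3 of 8 genes of the list rose and 3 fell, KEAP1 averaged 38.3 ± 0.794 FPKM with EVI1 and 22.6 ± 1.09 FPKM in controls.

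Partners of the lipid transporters, in the sterol and LXR list, rose for 7 of 16 and fell for 2 in K562, and rose for 1 of 7 and fell for 4 in libraries labelled MOLM14. NPC2, which binds cholesterol in the lysosome, averaged 52.2 ± 2.11 FPKM in K562 EVI1 libraries and 23.8 ± 2.30 FPKM in K562 controls, but 30.6 ± 2.72 FPKM in labelled MOLM14 EVI1 libraries and 57.1 ± 1.98 FPKM in their controls. In the haem and iron-sulphur list, 5 of 18 rose and 5 fell in K562, with ferrochelatase FECH at 145 ± 7.84 FPKM with EVI1 and 66.8 ± 4.03 FPKM in controls. The peroxisome list had 5 of 17 up and 4 down in K562, with PEX3, an assembly factor, at 6.16 ± 1.23 FPKM with EVI1 and 15.1 ± 0.656 FPKM in controls. PEX3 averaged 19.4 ± 2.10 FPKM in labelled MOLM14 EVI1 libraries and 10.4 ± 0.259 FPKM in labelled MOLM14 controls. Of 13 ribosome recycling genes, 3 rose and 4 fell in K562. EIF6, which keeps the large ribosomal subunit apart from the small one, averaged 144 ± 13.3 FPKM with EVI1 and 233 ± 35.0 FPKM in controls (log2 fold change -0.68). EIF3J, an initiation factor subunit, averaged 70.8 ± 5.07 FPKM with EVI1 and 114 ± 12.0 FPKM in controls (log2 fold change -0.68). PELO, the partner of ABCE1 on stalled ribosomes, averaged 12.0 ± 0.712 FPKM with EVI1 and 7.90 ± 0.136 FPKM in controls (log2 fold change 0.55). All of these counts stand beside the shares of tested rows given for the 2 labels, and errors are SD over 3 libraries.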

How the data were processed

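RNA was measured in 12 libraries, grouped by sample title. The authors deposited 1 table of FPKM per gene, made with STAR, Cufflinks and Cuffnorm on hg38 and GRCh38, per the submitters' processing notes; tool versions and strand use are not given in the sources used here. The labels' extraction text speaks of another tissue and species than the human lines named elsewhere. A blank row was left out. Tables were handled in pandas 2.3.3, SciPy 1.17.1 and NumPy 2.4.6 under Python 3.11.15. Tests used limma 3.58.1 in R 4.3.3 with a mean-variance trend on log2(FPKM + 1), two-sided, for each label apart, on rows with at least 1 FPKM in at least 3 of 6 libraries, with Benjamini-Hochberg adjustment over all rows of the fit. Single values outside the fits were compared with an exact permutation test. The difference of effects used all 12 libraries and rows with usable names that passed under both labels.

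Of the genes found by the rule, 2 are not reported here and stand in no count of ABC genes, but remained in the fits. Members, role lists and partner lists were chosen with earlier results of these data known. Named in full were genes called in any fit and the drug pumps, and from each partner list up to 3 called genes with the greatest change whose groups do not overlap. FPKM gives no counts: depth was estimated from values falling on whole fragments within 0.05 log2, which held for 85.9% to 88.7% of the values used in K562. Under the label MOLM14 it gave 30600000 to 39600000 fragments in 4 libraries, from 32 to 36 values each, and was not resolved in labelled MOLM14 control 1 and 2. Protein sequences were not used here. Coordinates are given where the gene version is in GENCODE 29. The fits were tested on simulated data with known changes. Alternatives were the pseudocount, the filter, 3 scalings, no trend, the replicate number as a block and leaving out each library.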

Additional observations from a re-analysis of the deposited data

Results flagged for a closer look

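A test of the difference itself singled out 6 ABC genes whose response to EVI1 was unequal between libraries labelled MOLM14 and K562, out of 8 tested under both, beside 64.9% of all 3697 rows tested in the same way, so the share is near the background. Each value is the log2 fold change in libraries labelled MOLM14 minus that in K562 (limma, adjusted over 3697 rows). ABCF2 (1.55), ABCB6 (0.51), ABCD3 (0.45) and ABCC1 (0.39) had the higher value in libraries labelled MOLM14, and ABCD4 (-1.26) and ABCA2 (-0.86) the higher value in K562. For ABCF2 all 3 EVI1 libraries moved apart from their controls in opposite directions under the 2 labels. The differences of ABCC1 and ABCD3 missed the threshold with libraries scaled to equal FPKM sums (adjusted p = 0.122 and 0.0536). A scale factor shared by all libraries of a label drops out of these differences, apart from the effect of the pseudocount. The cell line label and anything else that differed between the 2 labels cannot be told apart in them.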

How the results depend on the processing

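With no filter on low values, 13 ABC genes rose and 8 fell in K562, beside 14.7% and 9.33% of 32468 rows, while ABCC5, ABCC4 and ABCF3 lost their calls there. In that setting 2 fell in libraries labelled MOLM14, beside 18.2% of rows with usable names. A lower effect there than in K562 was called for 6, beside 30.7% of 4884 rows. With a filter of 5 FPKM, 0 fell in libraries labelled MOLM14 by limma, since ABCC9 was no longer tested. With equal FPKM sums 3 fell in K562, beside 2178 of 13800 rows, and 2 had a higher effect in libraries labelled MOLM14, beside 1013 of 3697 rows. Leaving out each library in turn gave 6 to 9 rises and 4 to 6 falls in K562, 5 to 6 rises and 1 fall in libraries labelled MOLM14, and 3 to 4 higher and 2 to 3 lower differences. Over all rows these fits gave 3275 to 3762 rises and 2486 to 3215 falls of 13800 in K562. Under the label MOLM14 they gave 3093 to 3396 rises and 3027 to 3299 falls of 13315. Of 3697 differences, 1183 to 1272 were higher and 1080 to 1147 lower. Small effects changed sign. Over the fits that leave out 1 library, ABCA7 in libraries labelled MOLM14 lay between -0.176 and 0.0768, and the difference of ABCC5 between -0.0925 and 0.0398. Why these moved was not tested.

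Deviations from the group means of same-numbered EVI1 and control libraries correlated at -0.215, -0.052 and 0.126 in K562. In libraries labelled MOLM14 they correlated at -0.009, -0.025 and -0.053. Libraries of unlike number ran from -0.237 to 0.223 in K562 and from -0.014 to 0.044 under the label MOLM14. Deviations from a mean of 3 libraries are tied to one another, so these values cannot decide whether replicate numbers pair the samples. With the replicate block, 7 ABC genes rose and 4 fell in K562, beside 3857 and 3187 of 13800 rows. ABCC4 (limma adjusted p = 0.0553) and ABCF3 (0.0592) were lost, and the difference of ABCA7 passed (0.0395). The block changed no other ABC call in the 3 comparisons. Of the single-gene values under all alternatives, 520 kept direction and side of the threshold, 28 lost the call, 11 gained one and 3 changed sign. Values under about 0.1 FPKM rest on few fragments and limit what can be said of ABCG2, ABCC2, ABCA1 and ABCG1.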

Other observations

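Some ABC genes stand next to each other, and their K562 values were read by position. On chromosome 17 ABCA8, ABCA9, ABCA6, ABCA10 and ABCA5 follow one another with no protein-coding gene between them in RefSeq (GRCh38.p14). Of these, ABCA8, ABCA6 and ABCA5 had every K562 EVI1 library below every K562 control, while ABCA9, at 0.0445, 0.0194 and 0.0940 FPKM in K562 EVI1 libraries and 0.0162, 0.00968 and 0.0973 FPKM in K562 controls, and ABCA10, at 0.207, 0.0255 and 0.0912 FPKM with EVI1 and 0.00988, 0.0284 and 0 FPKM in controls, overlapped. These 2 genes were chosen after their values were seen. ABCA10 and ABCA5 share 318 exon bases on the same strand. ABCA9-AS1, on the other strand, overlaps 534 exon bases of ABCA9 and 158 of ABCA8. Part of the reads of these neighbours is therefore uncertain.

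The sulphonylurea receptors are each the direct neighbour of the potassium channel gene whose product they join. KCNJ11, beside ABCC8 on chromosome 11, stood at 3.32, 4.53 and 2.96 FPKM in K562 EVI1 libraries, against 0.691, 0.698 and 0.705 FPKM in K562 controls (limma log2 fold change 1.42, SE 0.14, adjusted p = 6.9e-05). KCNJ8, beside ABCC9 on chromosome 12, stood at 1.94, 1.57 and 1.65 FPKM in K562 EVI1 libraries, against 4.12, 3.57 and 2.85 FPKM in K562 controls (limma log2 fold change -0.72, SE 0.13, adjusted p = 0.00185). Under the label MOLM14, where ABCC9 fell, KCNJ8 stood at 3.11, 2.43 and 2.32 FPKM with EVI1 and 2.25, 2.77 and 2.50 FPKM in controls, which overlapped (limma log2 fold change 0.04, adjusted p = 0.794). KCNJ11 passed the filter of 1 FPKM through the EVI1 libraries alone and so had to differ, and both receptors were under the filter in K562.

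The pseudogene ABCC13 on chromosome 21 stood at 1.53, 0.626 and 0.904 FPKM in K562 EVI1 libraries, against 0.0890, 0.118 and 0.393 FPKM in K562 controls, with no overlap and just under the filter. Of the ABC proteins under other names, the peptide transporter TAP1 stood at 2.28, 2.87 and 2.41 FPKM in K562 EVI1 libraries, against 1.90, 1.65 and 1.98 FPKM in K562 controls (limma log2 fold change 0.31, SE 0.11, adjusted p = 0.0449). Its partner TAP2 stood at 15.9, 19.6 and 17.1 FPKM with EVI1 and 15.9, 17.1 and 15.2 FPKM in controls in K562, which overlapped. CFTR was listed at 0 in all 12 libraries.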
